A study of Homo sapiens with 8 samples.

Results

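Host transcripts of small RNAs were followed in human AML cells after knockdown of PRMT9, a protein arginine methyltransferase. The members were the 73 genes, of 57992 in the Molm13 count table, whose symbol was SNHG followed by a number, began with MIR and ended with HG, or was GAS5. Of these, 23 were snoRNA hosts (the SNHG genes and GAS5) and 50 were microRNA hosts, and all 73 identifiers were found in the THP1 table. The choice rested on names and not on measured values.

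The libraries came from polyA RNA of Molm13 and THP1, established monocytic AML lines that carry MLL (KMT2A) fusions. In each line, cells labelled WT expressed a control shRNA (shCtrl) and cells labelled as PRMT9 knockdown expressed an shRNA against PRMT9 (shPRMT9). All cells, controls included, were under Dox induction of the shRNA. Each of the 4 groups held 2 libraries, numbered 1 and 2, and these were read as replicates although the study also numbers hairpins in that way. No label says that they came from separate cultures, so the p-values measure the spread between these libraries, which may be technical. The deposited names of the THP1 libraries contain the letters OCI, while their cell line label is THP1.

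Host genes carry small RNAs inside their primary transcripts. In snoRNA hosts the snoRNAs usually lie in introns and are released after splicing, and the remaining spliced RNA of many hosts, GAS5 and SNHG1 among them, is exported, read by ribosomes and degraded by nonsense-mediated decay. Many of these hosts start with a pyrimidine tract and belong to the 5′ TOP class, together with ribosomal protein genes. The primary transcripts of microRNA hosts are cut by DROSHA and DGCR8, and the hairpins are then exported and diced into mature microRNAs. Counts of polyadenylated host RNA measure the spliced or unspliced host and not the mature small RNA.

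The mature microRNAs of the hosts on which the results turn are shown first, because they name what each host transcript can give rise to. The sequences were taken from RefSeq (GRCh38.p14), in which 17 of 36 members with a mean of 20 or more counts in at least 1 line held mature microRNAs, 56 in number. Each is written 5′ to 3′ with the seed (bases 2 to 8), the stretch that pairs with target mRNAs, in capitals. MIR3142HG is the transcript that also carries the gene of miR-146a.
miR-155-5p (MIR155HG): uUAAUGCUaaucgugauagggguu
miR-146a-5p (MIR3142HG): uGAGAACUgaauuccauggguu
miR-3142 (MIR3142HG): aAGGCCUUucugaaccuucaga
miR-210-3p (MIR210HG): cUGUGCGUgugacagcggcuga
miR-22-3p (MIR22HG): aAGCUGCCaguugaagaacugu
miR-9-5p (MIR9-3HG): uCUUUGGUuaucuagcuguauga
miR-663a (MIR663AHG): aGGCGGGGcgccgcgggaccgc

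Hosts whose microRNAs share a seed are grouped here by it. MIR17HG, host of the miR-17-92 cluster, held 3 pairs with a common seed, of which 2 are printed, whereas the printed microRNAs of MIR222HG, and those of MIR181A2HG, had a single seed each. The seed AGCAGCA was shared by 3 microRNAs of MIR497HG and MIR503HG.
miR-17-5p (MIR17HG): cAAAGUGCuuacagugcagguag
miR-20a-5p (MIR17HG): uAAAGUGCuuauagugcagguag
miR-19a-3p (MIR17HG): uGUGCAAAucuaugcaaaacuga
miR-19b-3p (MIR17HG): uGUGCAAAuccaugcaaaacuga
miR-221-3p (MIR222HG): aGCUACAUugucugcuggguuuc
miR-222-3p (MIR222HG): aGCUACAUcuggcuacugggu
miR-195-5p (MIR497HG): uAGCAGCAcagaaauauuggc
miR-497-5p (MIR497HG): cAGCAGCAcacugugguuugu
miR-424-5p (MIR503HG): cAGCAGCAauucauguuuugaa
miR-181a-5p (MIR181A2HG): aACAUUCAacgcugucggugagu
miR-181b-5p (MIR181A2HG): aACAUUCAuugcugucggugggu

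Library totals ranged from 18720950 to 27356870 counts, and the members took 0.179% to 0.187% of the counts in Molm13 and 0.115% to 0.124% in THP1. For PRMT9 itself, Molm13 gave 332 and 289 counts under shCtrl against 41 and 56 under shPRMT9, and THP1 gave 317 and 352 against 60 and 68. The groups did not overlap, and the log2 fold changes were -2.68 ± 0.14 (SE) and -2.29 ± 0.13, with adjusted p of 1.16e-21 and 3.69e-14 in edgeR's quasi-likelihood test. Of 10 myeloid markers, 9 had an RPKM above 1 in the shCtrl libraries of each line. The T-cell marker CD4, which monocytic cells also express, and the B-cell factor PAX5 (4.54 RPKM in Molm13 shCtrl) were the other lineage markers above 1, while CD3D, CD3E and MS4A1 were at 0 or near it.

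A member was counted as expressed in a line with a mean of 20 or more counts over its 4 libraries. In both lines 30 of 73 members reached it, 2 did so in Molm13 only (MIR210HG and MIR497HG), 4 in THP1 only (MIR100HG, MIR3142HG, MIR663AHG and MIR762HG) and 37 in neither. Over all 8 libraries, 34 members had a mean of 20 or more, and 9 had no count in any library (MIR1-1HG, MIR124-2HG, MIR193BHG, MIR31HG, MIR381HG, MIR4290HG, MIR4307HG, MIR670HG and SNHG18). The snoRNA hosts were nearly all present, with 20 of 23 expressed in both lines and SNHG18, SNHG22 and SNHG23 below the limit. The microRNA hosts were mostly silent or scarce, with 12 of 50 expressed in Molm13 and 14 in THP1.

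Levels between genes were compared as RPKM, that is CPM (counts scaled to the normalized library total) divided by exon length in kilobases. SNHG6, host of SNORD87, had the highest RPKM of the shCtrl libraries, 212 in Molm13 and 71.8 in THP1. SNHG8, host of SNORA24, stood at 130 and 57.4. GAS5, the host of 11 RefSeq snoRNAs and a transcript that builds up when growth stops, stood at 96.5 and 28.3. SNHG5, host of SNORD50A and SNORD50B, was the only one of the 5 highest members with the higher RPKM in THP1, 33.7 in Molm13 against 60.4. SNHG1, host of a row of box C/D snoRNAs, had 59.4 and 31.2. Levels of the 2 lines, which were deposited as separate tables, were not tested against each other.

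Among the microRNA hosts, MIR155HG had the highest RPKM in Molm13 (13.1 in shCtrl) and stood at 3.61 in THP1. MIR663AHG was the highest in THP1, with 6.85 RPKM, and had 0, 0, 0 and 1 counts in Molm13. MIR9-3HG, a host of miR-9, had 9.03 RPKM in Molm13 and 2.45 in THP1.

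**Figure D1:**
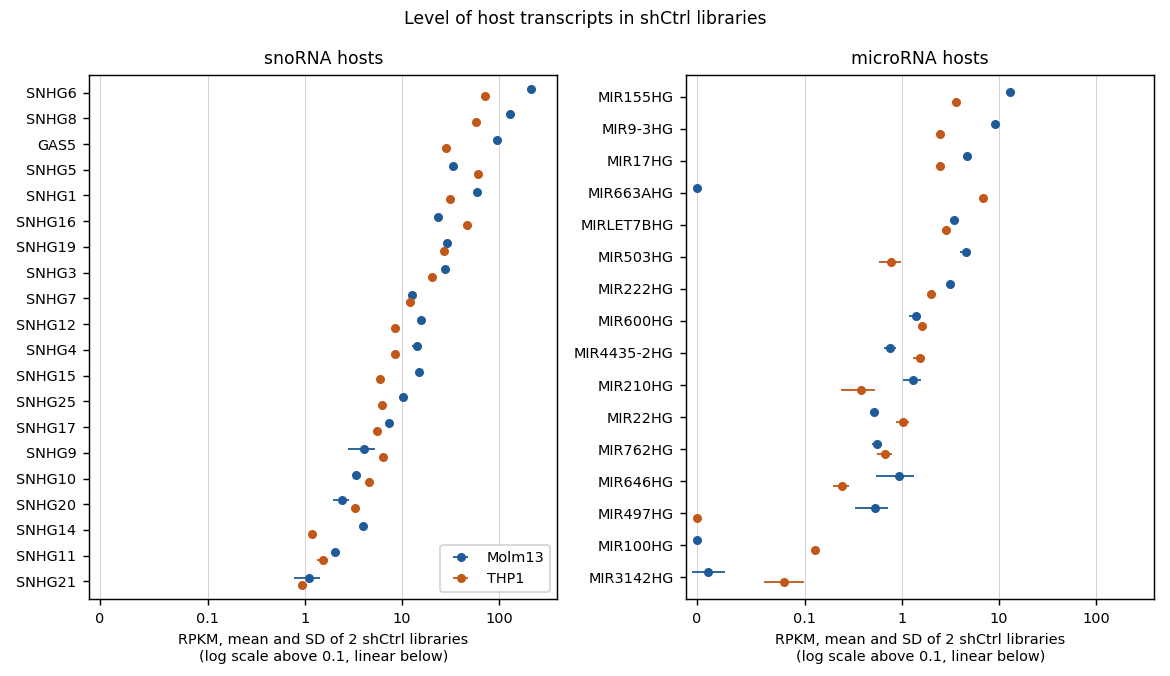
Level of the 36 members with a mean of 20 or more counts in at least 1 line, as RPKM in the shCtrl libraries (mean and SD of 2, log scale above 0.1 and linear below it), for Molm13 in blue and THP1 in orange. SNHG6 stood at 212 RPKM in Molm13, whereas MIR663AHG, MIR497HG and MIR100HG were present in 1 line and at or near 0 in the other.

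In Molm13, knockdown was followed among the microRNA hosts by rises of MIR210HG, MIR155HG, MIR222HG and MIR181A2HG and by a fall of MIR17HG. A member was called with an adjusted p below 0.05 (edgeR's quasi-likelihood test, Benjamini-Hochberg method over all genes tested), a fold change over 1.5 in either direction and an RPKM above 1 in at least 1 library. Of 35 members tested in Molm13, 9 were called, 4 higher and 5 lower, where 22.8% of all genes tested were called (11.4% higher and 11.3% lower), so that the share of members called was near that of all genes. By the adjusted p alone, 20 members passed, against 66.9% of all genes, and of these 8 rose and 12 fell (33.4% and 33.5% of all genes). The CPM of the groups did not overlap for 25 of 35 members, against 81.9% of all genes. In bulk RNA, fewer cells of a type and less RNA per cell cannot be told apart.

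MIR210HG (chr 11, 565660 to 568457, minus strand), the host of the hypoxia-responsive miR-210, had 71 and 50 counts under shCtrl and 320 and 340 with shPRMT9. Both knockdown libraries lay far above both controls. The fold change was 5.45, a log2 value of 2.45 ± 0.13 (SE, adjusted p = 4.73e-21), the largest rise among the members that entered the test in this line.

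MIR155HG (chr 21, 25561909 to 25575168, plus strand), also known as BIC and induced in activated immune cells, had 453 and 390 counts in shCtrl and 611 and 736 in shPRMT9. The groups did not overlap, with 21.0 ± 1.59 (SD) CPM against 33.6 ± 1.36. The log2 fold change was 0.68 ± 0.07 (SE, adjusted p = 1.35e-11). MIR222HG (chr X, 45745211 to 45770274, minus strand), the host of miR-221 and miR-222, had 171 and 177 counts against 241 and 286. Its log2 fold change was 0.60 ± 0.10 (adjusted p = 1.85e-06), a fold change of 1.51 and so just above the limit of 1.5, and it was 0.54 without shCtrl 1 and 0.57 without shPRMT9 library 2, both under that limit.

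MIR181A2HG, a host of miR-181a and miR-181b, had 8 and 13 counts in shCtrl and 25 and 27 in shPRMT9. Its mean lay under 20, so that it was called (log2 fold change 1.30 ± 0.37, adjusted p = 0.00212) from few reads. MIR646HG had 127 and 66 counts in shCtrl against 128 and 145. Its control libraries differed widely, and its log2 fold change of 0.50 ± 0.17 (adjusted p = 0.00728) was 0.14 (adjusted p = 0.465) without the shCtrl library 2 and 1.01 without the shCtrl library 1.

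MIR17HG (chr 13, 91347820 to 91354579, plus strand), the MYC-responsive host of the miR-17-92 cluster shown above, had 319 and 341 counts in shCtrl and 155 and 192 in shPRMT9. Both knockdown libraries lay well below both controls, at 16.5 ± 1.27 (SD) against 8.65 ± 0.52 CPM. The log2 fold change was -0.93 ± 0.10 (SE, adjusted p = 2.89e-11).

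MIR497HG, the host of miR-195 and miR-497, had 52 and 29 counts in shCtrl and 8 and 24 in shPRMT9. The groups did not overlap but the libraries of each differed widely, and the RPKM stayed below 1. Its log2 fold change of -1.34 ± 0.34 (adjusted p = 0.000593) was -0.89 (adjusted p = 0.0583) without shCtrl 1, -0.83 (adjusted p = 0.0442) without shPRMT9 library 1 and -2.22 without shPRMT9 library 2. Of its exon bases, 38.2% are shared with C17orf49 on the opposite strand, so that reads of the pair cannot be told apart where the counting strand is not known. Smaller falls were found for MIR600HG (-0.38 ± 0.13, adjusted p = 0.00916) and MIR9-3HG (-0.21 ± 0.05, adjusted p = 0.000252). MIR600HG is annotated as sense intronic and shares 4.2% of its exon bases with STRBP on the same strand. STRBP had a mean of 1504.5 counts in Molm13 and 2169.5 in THP1, against 147 and 227.5 for MIR600HG. The part of STRBP in the counts of MIR600HG was not tested. MIR600HG missed the threshold without shCtrl 2 (-0.22, adjusted p = 0.193) or shPRMT9 library 1 (-0.31, adjusted p = 0.0725).

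The other microRNA hosts with a mean of 20 or more in Molm13 did not pass, nor did MIR762HG and MIR99AHG, which were tested at a mean under 20. Their log2 fold changes were 0.26 ± 0.13 for MIR4435-2HG, 0.0043 ± 0.079 for MIRLET7BHG, -0.03 ± 0.29 for MIR22HG and -0.16 ± 0.12 for MIR503HG. The median over the 12 microRNA hosts expressed in Molm13 was -0.01, beside -0.02 over all genes tested with such a mean.

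MIR3142HG (chr 5, 160468268 to 160487426, plus strand), which holds miR-146a, had 1 and 0 counts under shCtrl in Molm13 and 16 and 10 with shPRMT9. It was too low to enter the test in this line. Against a floor of 3 counts in each control library, the knockdown level was at least 4.41-fold higher.

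Of 20 snoRNA hosts tested in Molm13, 3 rose and 8 fell by the adjusted p, beside 33.4% and 33.5% of all genes. The fold change and RPKM limits were also passed by 4 of those that fell, beside 11.3% of all genes, and by 0 of those that rose. The 4 called hosts were SNHG9, SNHG4, SNHG3 and SNHG12. SNHG3 (chr 1, 28505980 to 28510892, plus strand), host of SNORA73A and SNORA73B, had 2316 and 2263 counts in shCtrl and 1326 and 1549 in shPRMT9. The groups were far apart, at 114 ± 1.58 (SD) against 71.8 ± 1.34 CPM, at a log2 fold change of -0.67 ± 0.04 (SE, adjusted p = 3.80e-19).

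SNHG12 (chr 1, 28578538 to 28582983, minus strand), the neighbour of SNHG3 and host of SNORA61, SNORA44, SNORA16A and SNORD99, had 1111 and 1019 counts against 675 and 734. Both knockdown libraries were lower, and the log2 fold change was -0.60 ± 0.05 (adjusted p = 5.26e-13), just past the fold change limit. It was -0.55 without shPRMT9 library 2 and -0.57 without shCtrl 1, both short of that limit. SNHG4 (chr 5, 139274102 to 139283244, plus strand), host of SNORA74 genes, had 597 and 500 counts against 241 and 321. Its groups also stood apart, and it changed by -0.97 ± 0.08 (adjusted p = 5.28e-14). SNHG9, host of SNORA78, had 56 and 34 counts against 19 and 20, and its log2 fold change of -1.20 ± 0.29 (adjusted p = 0.000347) was the largest fall of the called snoRNA hosts and the one with the fewest reads among them.

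Of these hosts, 3 share exon bases with an expressed neighbour. SNHG3 shares 5.92% of its exon bases with RCC1 on the same strand, and RCC1 itself had a log2 fold change of -0.59 (adjusted p = 4.82e-20). SNHG4 shares 14.0% with MATR3 on the same strand and 2.64% with SIL1 on the other, and SNHG12 shares 0.188% with TRNAU1AP. The part of these neighbours in the counts was not tested. SNHG9 shared none with a gene of 20 or more counts.

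SNHG17 (-0.54 ± 0.07, adjusted p = 3.28e-09), host of SNORA71 genes, and SNHG1 (-0.52 ± 0.03, adjusted p = 7.25e-19) fell by a little less than the fold change limit. SNHG1 (chr 11, 62851988 to 62855914, minus strand) had 4464 and 4457 counts against 2966 and 3266, with no overlap between the groups. SNHG10 fell by 0.48 ± 0.15 (adjusted p = 0.00368). SNHG5 had the smallest fall (-0.11 ± 0.04, adjusted p = 0.0159), which was not past the threshold without shCtrl 1 (-0.10, adjusted p = 0.0739) or shPRMT9 library 2 (-0.07, adjusted p = 0.265).

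The 3 snoRNA hosts that rose were SNHG8, SNHG14 and SNHG6. SNHG8 (chr 4, 118278709 to 118279823, plus strand) had 2446 and 2369 counts in shCtrl and 2857 and 3177 in shPRMT9, a log2 fold change of 0.33 ± 0.03 (adjusted p = 1.89e-11). SNHG14 (chr 15, 24978583 to 25419462, plus strand), the long imprinted transcript that carries the SNORD115 and SNORD116 clusters and runs antisense to UBE3A, had 2891 and 2882 counts against 3220 and 3653 (0.25 ± 0.03, adjusted p = 4.85e-09). SNHG6 had 5340 and 5216 against 5463 and 6193, a value of 0.14 ± 0.03 (adjusted p = 1.08e-05). In each of the 3, both knockdown libraries lay above both controls in CPM, by fold changes under the limit.

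GAS5 (chr 1, 173863900 to 173868882, minus strand) had 7127 and 6900 counts in shCtrl and 6408 and 7358 in shPRMT9. The CPM values were 350 ± 2.55 (SD) and 344 ± 2.24, so that the knockdown libraries were slightly lower, and the log2 fold change of -0.03 ± 0.03 (SE) did not pass (adjusted p = 0.355). The other hosts that did not pass were SNHG15, SNHG25, SNHG20, SNHG11, SNHG16, SNHG7, SNHG19 and SNHG21, between 0.04 for SNHG15 and -0.27 for SNHG21. The median over the 20 snoRNA hosts was -0.10, beside -0.02 over all genes tested with a mean of 20 or more.

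**Figure D2:**
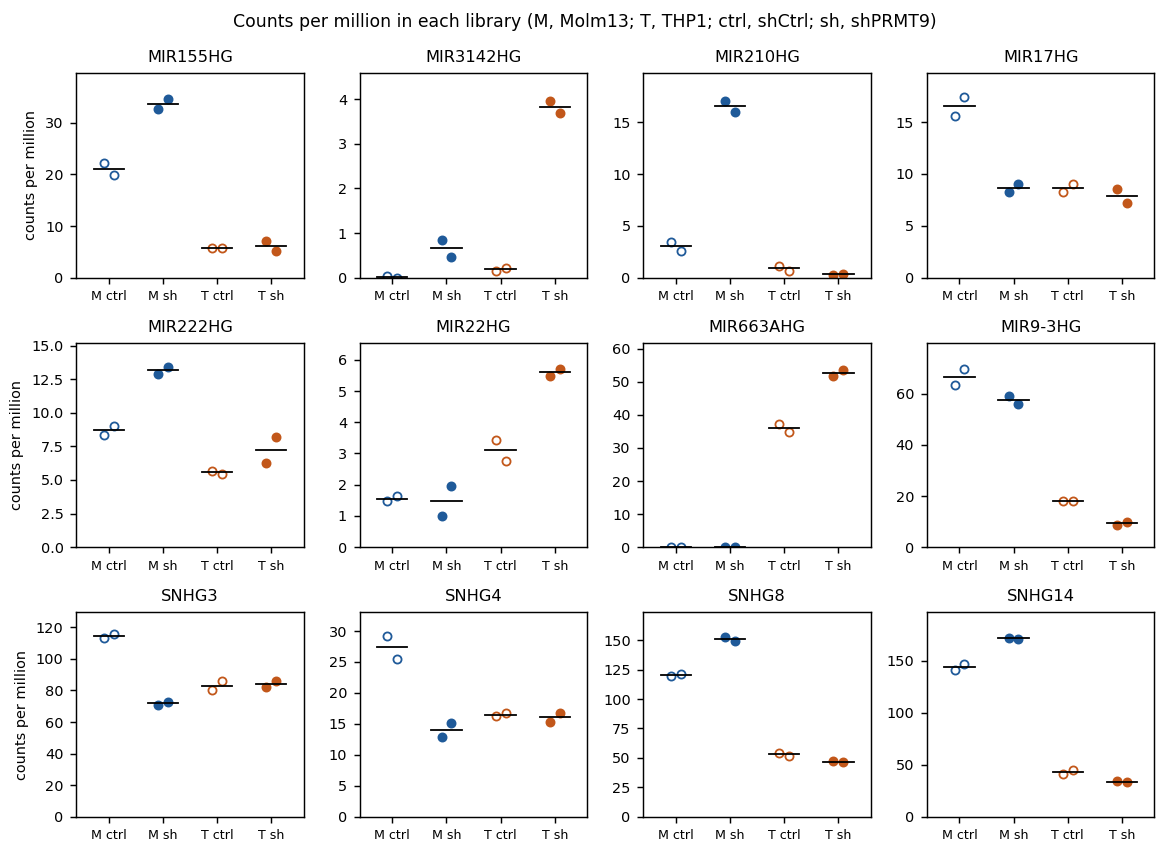
CPM of 12 host transcripts in each library, with open points for shCtrl, filled points for shPRMT9 and a bar at the mean of 2, Molm13 in blue and THP1 in orange. MIR155HG, MIR210HG and MIR222HG stood higher with shPRMT9 in Molm13 and MIR17HG, SNHG3 and SNHG4 lower, while in THP1 the rises of MIR3142HG, MIR22HG and MIR663AHG and the fall of MIR9-3HG separate the groups.

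In THP1, MIR3142HG and MIR22HG were called higher and MIR9-3HG was called lower. Of 35 members tested, 3 were called, 2 higher and 1 lower, where 6.22% of all genes tested were called (3.83% higher and 2.39% lower). By the adjusted p alone, 15 members passed, against 37.6% of all genes, and of these 4 rose and 11 fell (19% and 18.6% of all genes). The groups did not overlap for 21 of 35 members, against 66% of all genes.

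MIR3142HG had 4 and 6 counts in shCtrl and 100 and 92 in shPRMT9. In CPM this was 0.186 ± 0.04 (SD) against 3.83 ± 0.19, with the controls close to the floor of detection. This was a log2 fold change of 4.32 ± 0.32 (SE, adjusted p = 1.08e-11).

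MIR22HG (chr 17, 1711493 to 1717174, minus strand), the host of miR-22, had 88 and 77 counts in shCtrl and 138 and 142 in shPRMT9. Both knockdown libraries lay above both controls, by a log2 fold change of 0.86 ± 0.16 (adjusted p = 7.06e-05). MIR663AHG (chr 20, 26186920 to 26251526, minus strand) had 957 and 968 counts against 1302 and 1330, a change of 0.55 ± 0.06 (adjusted p = 7.81e-09) that fell just short of the fold change limit at 1.46. MIR222HG, which also rose in Molm13, had 146 and 152 counts against 157 and 203. Its log2 fold change of 0.37 ± 0.14 (adjusted p = 0.0336) depended on single libraries, since it was 0.16 (adjusted p = 0.508) without shPRMT9 library 2 and 0.33 (adjusted p = 0.0921) without shCtrl 2. It did not pass with DESeq2 (adjusted p = 0.202) or without a filter on low counts (adjusted p = 0.0827).

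MIR9-3HG (chr 15, 89361579 to 89398487, plus strand) had 463 and 501 counts in shCtrl and 220 and 249 in shPRMT9. The groups stood far apart, at 18.0 ± 0.04 (SD) against 9.37 ± 0.91 CPM, and the log2 fold change was -0.94 ± 0.09 (SE, adjusted p = 2.26e-09).

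MIR100HG, the host of miR-100, let-7a-2 and miR-125b-1, had 34 and 41 counts in shCtrl and 14 and 17 in shPRMT9, and 0, 0, 0 and 2 in Molm13. It fell in THP1 by 1.17 ± 0.33 on the log2 scale (adjusted p = 0.00539), at an RPKM below 1, and was at -1.09 (adjusted p = 0.0531) without shCtrl 2. MIR210HG, which rose in Molm13, had 29 and 18 counts in THP1 shCtrl and 7 and 10 in shPRMT9. Its log2 fold change in THP1 was -1.36 ± 0.44 (adjusted p = 0.0153), from a mean under 20 counts and an RPKM below 1, and was -0.92 (adjusted p = 0.334) without shCtrl 1 and -1.12 (adjusted p = 0.11) without shPRMT9 library 1. MIR600HG fell by 0.34 ± 0.11 (adjusted p = 0.0148) and missed the threshold without shCtrl 2 (-0.31, adjusted p = 0.0663) or shPRMT9 library 1 (-0.26, adjusted p = 0.132).

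MIR155HG did not pass in THP1, with 149 and 160 counts in shCtrl and 177 and 130 in shPRMT9. The knockdown libraries lay on both sides of the controls, and the log2 fold change was 0.08 ± 0.14 (adjusted p = 0.683). MIR17HG, with 212 and 251 counts against 216 and 180, did not pass (-0.13 ± 0.12, adjusted p = 0.415). MIR4435-2HG, MIR503HG, MIR646HG, MIR762HG and MIRLET7BHG did not pass in THP1, with log2 fold changes from -0.23 for MIRLET7BHG to 0.47 for MIR503HG. The median over the 14 microRNA hosts expressed in THP1 was 0.15, beside -0.0038 over all genes tested with such a mean.

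Of 20 snoRNA hosts tested in THP1, 0 rose and 7 fell by the adjusted p, beside 19% and 18.6% of all genes, and 0 of these reached the fold change limit. SNHG5 (chr 6, 85660950 to 85678736, minus strand) had 4312 and 4703 counts in shCtrl and 3543 and 3486 in shPRMT9. Its groups were well apart, at 169 ± 0.62 (SD) against 140 ± 0.21 CPM (log2 fold change -0.26 ± 0.04, SE, adjusted p = 8.73e-07). SNHG14 had 1064 and 1243 counts against 858 and 820, at a log2 fold change of -0.36 ± 0.06 (adjusted p = 1.57e-05).

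SNHG1 (-0.15 ± 0.04, adjusted p = 0.00411), SNHG7 (-0.14 ± 0.05, adjusted p = 0.0370), SNHG8 (-0.18 ± 0.05, adjusted p = 0.00745), SNHG19 (-0.38 ± 0.11, adjusted p = 0.00749) and SNHG11 (-0.42 ± 0.17, adjusted p = 0.0471) also fell. Leaving out single libraries, which was not run for SNHG7, moved SNHG8, SNHG1, SNHG19 and SNHG11 out of the adjusted p threshold. SNHG8 was at -0.15 (adjusted p = 0.0934) without shCtrl 1 and did not pass with DESeq2 (adjusted p = 0.0586), SNHG1 at -0.13 (adjusted p = 0.0617) without shCtrl 2, SNHG19 at -0.33 (adjusted p = 0.0534) without shPRMT9 library 2, and SNHG11 at -0.30 (adjusted p = 0.288) without shCtrl 1, -0.35 (adjusted p = 0.196) without shPRMT9 library 1 and -0.50 (adjusted p = 0.0545) without shPRMT9 library 2. In CPM, both knockdown libraries lay below both controls for each of the 5.

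The 4 hosts called lower in Molm13 did not pass in THP1. SNHG3 had 2053 and 2397 counts in shCtrl and 2078 and 2133 in shPRMT9 (log2 fold change 0.02 ± 0.05), and SNHG12 had 758 and 759 against 742 and 710 (0.03 ± 0.07). SNHG4 had 416 and 464 against 386 and 417 (-0.04 ± 0.08), and SNHG9 had 93 and 93 against 77 and 99 (0.01 ± 0.17). In each of the 4 the groups overlapped in CPM. GAS5 had 2630 and 2872 counts in shCtrl and 2603 and 2592 in shPRMT9, with 103 ± 0.47 (SD) against 104 ± 0.73 CPM and a log2 fold change of 0.01 ± 0.04 (SE, adjusted p = 0.846). The median over the 20 snoRNA hosts was -0.12 in THP1.

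**Figure D3:**
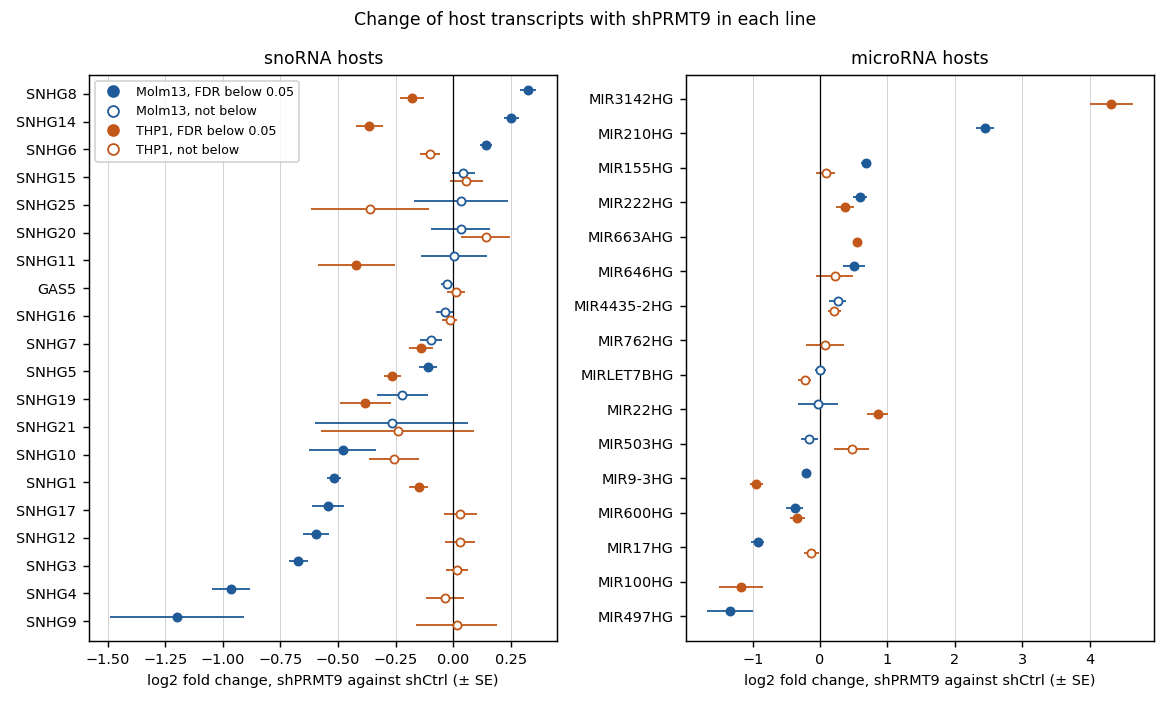
Log2 fold change of shPRMT9 against shCtrl (point) with its SE (line) for each snoRNA host (left) and microRNA host (right) with a mean of 20 or more counts in the line shown, for Molm13 in blue and THP1 in orange, filled where the adjusted p lay below 0.05. SNHG8 and SNHG14 lie to the right of 0 in Molm13 and to the left in THP1, and MIR3142HG in THP1 lies at 4.32.

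The effect of shPRMT9 in THP1 minus that in Molm13 was tested as an interaction over all 8 libraries, since passing in 1 line alone does not show a difference. Of 38 members tested, 17 differed with an adjusted p below 0.05, 9 with the higher value in THP1 and 8 with the higher value in Molm13, where 42.2% of all genes tested differed (22.8% and 19.4%). Among snoRNA hosts, 10 of 20 differed. SNHG3 (0.70 ± 0.06, adjusted p = 7.62e-18), SNHG4 (0.94 ± 0.12, adjusted p = 1.61e-10), SNHG12 (0.64 ± 0.09, adjusted p = 1.30e-09), SNHG17 (0.59 ± 0.10, adjusted p = 9.79e-07), SNHG9 (1.23 ± 0.34, adjusted p = 0.00171) and SNHG1 (0.38 ± 0.05, adjusted p = 5.54e-10) had the higher value in THP1. The SNHG9 difference was 0.83 (adjusted p = 0.104) without the Molm13 shCtrl library 1.

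SNHG14 (-0.60 ± 0.07, adjusted p = 1.44e-13), SNHG8 (-0.49 ± 0.06, adjusted p = 3.66e-11), SNHG6 (-0.23 ± 0.05, adjusted p = 5.95e-05) and SNHG5 (-0.14 ± 0.05, adjusted p = 0.0280) had the higher value in Molm13. SNHG14 and SNHG8 were the 2 members with a mean of 20 or more counts in both lines that rose in Molm13 and fell in THP1, the fall of SNHG8 not passing with DESeq2 (adjusted p = 0.0586), and MIR210HG did so with a mean under 20 counts in THP1. SNHG5 was at -0.15 (adjusted p = 0.0727) without the Molm13 shPRMT9 library 1. Members that passed in the same direction in both lines were MIR222HG upward and SNHG1, SNHG5, MIR9-3HG and MIR600HG downward. With DESeq2, MIR222HG did not pass in THP1 (adjusted p = 0.202) and SNHG5 did not in Molm13 (0.144). MIR600HG passed in neither line with it (0.137 in Molm13 and 0.14 in THP1). The fall of SNHG1 in THP1 depended on a single library, as given above.

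Among microRNA hosts, 7 of 18 differed, beside 42.2% of all genes tested. MIR210HG differed by -3.79 ± 0.42 (adjusted p = 3.77e-13), with the higher value in Molm13 and a mean under 20 counts in THP1. MIR155HG (-0.58 ± 0.15, adjusted p = 0.000841) and MIR9-3HG (-0.72 ± 0.10, adjusted p = 4.90e-09) also had the higher value in Molm13, and MIR17HG (0.81 ± 0.15, adjusted p = 5.33e-06) had it in THP1. MIR22HG differed by 0.89 ± 0.33 (adjusted p = 0.0209) and missed the threshold without the Molm13 library shCtrl 2 (0.78, adjusted p = 0.122), the Molm13 library shPRMT9 1 (0.49, adjusted p = 0.314) or the THP1 library shCtrl 2 (0.71, adjusted p = 0.0817).

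The differences of MIR497HG (6.09) and MIR181A2HG (-2.57) rest on few reads. MIR497HG had 0 and 0 counts in THP1 shCtrl and 5 and 2 in shPRMT9, so that its fitted value depends on the prior count and is no measure of size. MIR181A2HG had 8 and 8 against 1 and 5 in THP1, and its difference was -1.88 (adjusted p = 0.0775) without the THP1 shPRMT9 library 1. MIR3142HG stood higher with shPRMT9 in both lines, from controls near 0, and no difference in its effect was detected (-0.10 ± 0.46, adjusted p = 0.952), at 1 and 0 control counts in Molm13.

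Myeloid markers moved with the knockdown as well. Their summed RPKM ranged from 597 to 600.2 in the Molm13 shCtrl libraries and was 879.7 in both shPRMT9 libraries, and it ranged from 1351 to 1370.2 against 2043 to 2129 in THP1. A single marker gave 359 of the 599 RPKM in Molm13 shCtrl and 1068 of the 1361 in THP1 shCtrl. Of the 10, 4 were called higher in each line, beside 11.4% (Molm13) and 3.83% (THP1) of all genes. In Molm13 0 and in THP1 1 (MPO) were called lower, beside 11.3% and 2.39% of all genes. By the adjusted p alone, 7 rose and 2 fell in Molm13, beside 33.4% and 33.5% of all genes. In THP1, 6 rose and 2 fell by it, beside 19% and 18.6% of all genes. CSF1R, the receptor of the monocyte growth factor, changed by 2.06 (Molm13) and 1.03 (THP1) on the log2 scale, and ITGAM by 1.95 and 1.15. The summed T-cell markers stood at 25.9 to 26.7 RPKM against 55.2 to 56.6 in Molm13, nearly all of it CD4. In THP1 the summed B-cell markers stood at 0.971 to 1.04 against 1.80 to 2.31, and none had a mean above 0.318 in shCtrl. The erythroid and megakaryocyte markers stayed at or below 0.430 in every library. The part of this shift in the changes of host transcripts was not tested.

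Genes of the same pathways were taken from lists of named components. The snoRNP list held core proteins of the snoRNA particles and also factors of their assembly, such as NAF1 and SHQ1. Of its 14 genes, 9 fell and 2 rose in Molm13 by the adjusted p, beside 33.5% and 33.4% of all genes, with a median log2 fold change of -0.42. Of them, 4 were called lower and 0 higher, beside 11.3% and 11.4% of all genes. GAR1, of the box H/ACA particle, had the largest fall (-0.66, adjusted p = 4.31e-13), and NOP56 of the box C/D particle (-0.65, adjusted p = 1.70e-24), the pseudouridine synthase DKC1 (-0.61, adjusted p = 1.23e-22) and NOLC1 (-0.61, adjusted p = 8.40e-25) were called with it. In THP1, 4 of 14 rose and 0 fell by the adjusted p, beside 19% and 18.6% of all genes. There 0 were called and the median was 0.01.

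Among 14 microRNA processing proteins, 4 were called lower and 1 higher in Molm13, beside 11.3% and 11.4% of all genes. DGCR8 (-0.90, adjusted p = 1.41e-20) and DROSHA (-0.59, adjusted p = 1.09e-18), which cut primary transcripts, and XPO5 (-0.88, adjusted p = 1.29e-27) and RAN (-0.67, adjusted p = 5.76e-27), which carry hairpins out of the nucleus, fell, whereas TNRC6C, a partner of Argonaute, rose (0.89, adjusted p = 5.17e-19). By the adjusted p, 4 rose and 6 fell, beside 33.4% and 33.5% of all genes, with a median of -0.04. In THP1, TNRC6A rose (0.72, adjusted p = 8.35e-14) as the single call. By the adjusted p, 3 rose and 5 fell there, beside 19% and 18.6% of all genes, with a median of -0.04. Of 14 nonsense-mediated decay factors, 3 rose and 10 fell by the adjusted p in Molm13 (median -0.19), beside 33.4% and 33.5% of all genes. MAGOH (-0.66, adjusted p = 7.79e-12) was the 1 called. In THP1, 4 rose and 1 fell, beside 19% and 18.6% of all genes, 0 were called and the median was 0.03.

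Protein-coding hosts of snoRNAs, many of them ribosomal protein genes, moved apart in Molm13. Of 45 found, 23 rose and 18 fell by the adjusted p, beside 33.4% and 33.5% of all genes, with a median of 0.16. Of them, 6 were called, all lower, beside 11.3% of all genes called lower. HSPA8, a heat shock cognate protein, had the largest fall (-0.99, adjusted p = 8.41e-36), and the nucleolar NOP56 and DKC1 also belong to this list. In THP1, 4 rose and 27 fell (median -0.14), beside 19% and 18.6% of all genes, and 0 were called. Of 24 protein-coding microRNA hosts tested in Molm13, 3 were called higher and 3 lower (median -0.04), beside 11.4% and 11.3% of all genes. EVL, host of miR-342, rose by 1.09 (adjusted p = 1.39e-30) and SKA2, host of miR-301a, fell by 0.95 (adjusted p = 2.95e-19), and MCM7, host of the miR-106b-25 cluster, which shares seeds with miR-17-92, fell by 0.88 on the log2 scale (-0.875, adjusted p = 4.57e-29). In THP1, 0 of 27 were called higher and 3 lower, beside 3.83% and 2.39% of all genes. The largest of these falls was that of SREBF1, host of miR-33b (-1.06, adjusted p = 6.56e-15).

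**Figure D4:**
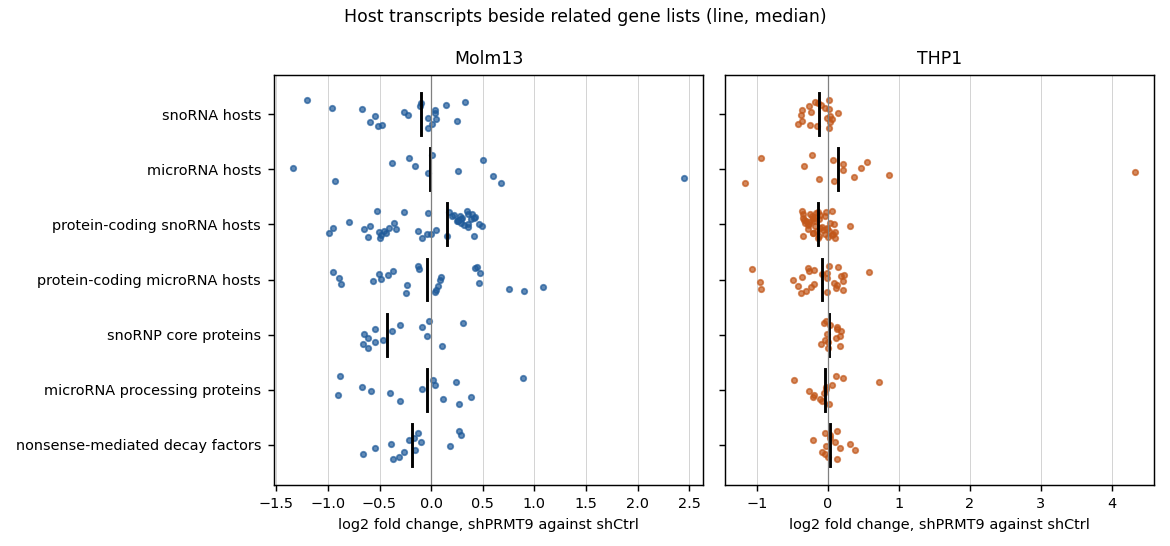
Log2 fold change of shPRMT9 against shCtrl of each gene (points) in the 2 classes of host transcripts with a mean of 20 or more counts and in 5 related gene lists, with the median as a vertical line, for Molm13 (left) and THP1 (right, on its own scale). The list labelled snoRNP core proteins, which includes assembly factors, has a median of -0.42 in Molm13 and 0.01 in THP1, and the medians of the snoRNA hosts are -0.10 and -0.12.

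In GENCODE release 29, 72 of 73 members have an entry and 61 of them the same start and end as in the deposited table, which is on hg38. The 20 expressed snoRNA hosts contained 127 snoRNA genes there, of which 86 lie in introns, 38 in exons and 3 at an exon edge. SNHG14 alone held 84 of the 127, so these counts describe mainly that locus. In the other expressed snoRNA hosts, more of the snoRNA genes lie in annotated exons of this release than in introns. GAS5 held 0 in this release, against 11 in RefSeq. The expressed members of both classes contained 31 microRNA genes (including MIR6516 in SNHG20), of which 14 lie in introns, 16 in exons and 1 at an exon edge. The tables have rows for the snoRNA genes, but 91 of 127 had no count in Molm13 and 103 had none in THP1, and only 7 and 8 had 20 or more counts summed over a line. These rows were too sparse to be compared between the groups. In SNHG3, SNORA73A in an exon had 0 counts in each line, and SNORA73B in an intron had 289 in Molm13 and 194 in THP1. Zeros were also found in introns, as for SNORD115-1 of SNHG14. The part of exon overlap in these zeros was not tested. Exon bases were shared with another gene of 20 or more counts by 13 of 32 expressed members in Molm13 and 13 of 34 in THP1. On the opposite strand, SNHG10 shares 20.1% of its exon bases with GLRX5, SNHG6 shares 29.3% with MCMDC2 and SNHG7 shares 25.2% with FAM69B. Also on the opposite strand, SNHG14 shares 0.457% with UBE3A and MIR762HG shares 27.5% with BCL7C. The values of these members carry the same uncertainty of strand as MIR497HG. SNHG21 shares 72.9% with AC105339.2 on the same strand. That gene had a mean of 100 counts in Molm13 and 80.5 in THP1, against 21.5 and 23.75 for SNHG21. Its part in the counts of SNHG21 was not tested.

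The 300 bases around the start (250 before and 50 after) were available from RefSeq (GRCh38.p14) for 16 of the snoRNA hosts and 16 of the microRNA hosts, the latter with 24 starts. Those of the 3 microRNA hosts given most weight above are printed 5′ to 3′ on the strand of the transcript. Capitals mark the NF-κB (κB) consensus in MIR3142HG, a pair of GAAA with 2 bases between them, a core of interferon-stimulated response elements, in MIR155HG and the hypoxia-element core ACGTG in MIR210HG, each searched on both strands.
MIR3142HG (chr5:160468001-160468300, plus strand): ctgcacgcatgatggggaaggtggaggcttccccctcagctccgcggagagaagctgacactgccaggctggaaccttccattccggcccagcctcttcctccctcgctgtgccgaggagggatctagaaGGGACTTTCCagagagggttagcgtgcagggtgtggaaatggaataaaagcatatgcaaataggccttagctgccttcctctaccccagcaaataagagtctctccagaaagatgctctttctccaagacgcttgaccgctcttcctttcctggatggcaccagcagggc
MIR155HG (chr21:25561895-25562194, plus strand): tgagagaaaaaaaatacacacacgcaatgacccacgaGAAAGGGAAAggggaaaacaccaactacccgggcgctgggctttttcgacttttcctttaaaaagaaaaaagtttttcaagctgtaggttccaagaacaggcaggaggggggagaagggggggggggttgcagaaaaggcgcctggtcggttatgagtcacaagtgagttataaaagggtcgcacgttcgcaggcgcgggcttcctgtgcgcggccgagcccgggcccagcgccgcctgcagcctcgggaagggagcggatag
MIR210HG (chr11:568408-568707, minus strand): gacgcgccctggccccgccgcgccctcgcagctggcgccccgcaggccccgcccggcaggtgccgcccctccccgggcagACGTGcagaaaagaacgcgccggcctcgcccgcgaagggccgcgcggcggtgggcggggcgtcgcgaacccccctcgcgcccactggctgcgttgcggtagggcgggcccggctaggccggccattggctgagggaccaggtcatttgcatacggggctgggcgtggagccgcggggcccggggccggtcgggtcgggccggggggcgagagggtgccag

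The matches began 120 bases before the start in MIR3142HG, 213 in MIR155HG and 170 in MIR210HG. Of 35116 promoters of this length, 5.91% held the κB consensus, 3.57% held the GAAA pair and 21.4% held ACGTG, a 5-letter core that also lies within CACGTG (7.26%). Among the 16 microRNA hosts, 2 held the κB consensus, 3 held the GAAA pair and 9 held ACGTG in at least 1 of their starts. MIR155HG also held ACGTG, 31 bases before the start and not capitalised. A match describes letters and is not a binding site.

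At the starts of snoRNA hosts the letters CTTT, a short form of the pyrimidine tract of 5′ TOP genes, were searched on the transcript strand from 10 bases before to 20 after the start. They were found in 6 of 16 snoRNA hosts and 4 of 16 microRNA hosts, beside 12.5% of all promoters. A host was counted if any of its starts matched, and the microRNA hosts had 24 starts, so their share is not per promoter. The starts of these snoRNA hosts, from 15 bases before to 25 after, are printed to show them, with CTTT in capitals.
SNHG12 (chr1:28581849-28581888, minus strand): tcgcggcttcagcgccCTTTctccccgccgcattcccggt
SNHG4 (chr5:139274086-139274125, plus strand): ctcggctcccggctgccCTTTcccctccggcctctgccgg
SNHG8 (chr4:118278747-118278786, plus strand): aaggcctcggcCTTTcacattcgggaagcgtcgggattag
SNHG5 (chr6:85678709-85678748, minus strand): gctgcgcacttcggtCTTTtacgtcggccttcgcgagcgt
SNHG19 (chr16:2155334-2155373, minus strand): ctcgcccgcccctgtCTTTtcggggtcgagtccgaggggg
SNHG16 (chr17:76557749-76557788, plus strand): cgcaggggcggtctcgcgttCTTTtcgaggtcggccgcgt

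In Molm13, SNHG12 and SNHG4 were called lower, SNHG8 rose and SNHG5 fell by less than the fold change limit, and SNHG19 (-0.22 ± 0.11, adjusted p = 0.0726) and SNHG16 (-0.03 ± 0.04, adjusted p = 0.457) did not pass. In THP1, SNHG8, SNHG5 and SNHG19 fell and SNHG12, SNHG4 and SNHG16 did not pass. The printed hosts thus included both directions in Molm13.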

How the data were processed

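PolyA RNA-seq was analysed in 8 libraries of Molm13 and THP1 cells. The authors deposited unnormalized counts of reads on each gene, in 1 table per line, with 18720950 to 27356870 counts per library. The submitters' processing notes name TopHat2 2.0.8, HTSeq 0.11.2, edgeR 3.30.3 and hg38. The annotation release and strand setting of the counting are not given in the sources used here.

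From the counts, each line was fitted alone in R 4.3.3 with edgeR 4.0.16: TMM normalization, filterByExpr, the two-sided quasi-likelihood test and Benjamini-Hochberg adjustment over all genes tested (16446 in Molm13 and 16294 in THP1). Limits were an adjusted p below 0.05, a fold change over 1.5 and an RPKM above 1 in at least 1 library. The interaction of line and shRNA was fitted over 8 libraries and 19288 genes. SE was |log2 fold change| over the square root of F. RPKM in either line was computed with exon lengths given in the Molm13 table. The fits were tested on simulated data.

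The genes named were PRMT9, MIR155HG, MIR3142HG and GAS5, the 6 largest rises and falls per line past the adjusted p with a mean of 20 or more counts, the 5 highest by shCtrl RPKM, those expressed in 1 line only, the 5 smallest adjusted p for the difference and, per list, the extremes among those called. Other names account for the remaining members or were chosen after their values were seen. The members and lists were chosen with earlier results of these data known. Alternatives were other normalizations and filters, DESeq2 1.42.0, other limits, a replicate block, a common fit and leaving out each library. One marker gene is not reported here.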

Additional observations from a re-analysis of the deposited data

Results flagged for a closer look

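By the test of the difference itself, shPRMT9 effects differed between the lines for 17 of 38 members, beside 42.2% of all genes tested. Differences are given as the log2 fold change in THP1 minus that in Molm13. All had an adjusted p below 0.05 in edgeR's quasi-likelihood test. Among snoRNA hosts with the higher value in THP1, the difference was 0.70 for SNHG3, 0.94 for SNHG4, 0.64 for SNHG12, 0.59 for SNHG17, 1.23 for SNHG9 and 0.38 for SNHG1. Among snoRNA hosts with the higher value in Molm13, it was -0.60 for SNHG14, -0.49 for SNHG8, -0.23 for SNHG6 and -0.14 for SNHG5. Among microRNA hosts it was 0.81 for MIR17HG, 0.89 for MIR22HG and 6.09 for MIR497HG, and -0.58 for MIR155HG, -0.72 for MIR9-3HG, -3.79 for MIR210HG and -2.57 for MIR181A2HG. The values of MIR497HG and MIR181A2HG come from few counts, with 0 and 0 counts of MIR497HG in THP1 shCtrl.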

How the results depend on the processing

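With 2 libraries a group, low members such as MIR497HG, MIR181A2HG and MIR3142HG in Molm13 limit what can be said. The 9 members called in Molm13 (4 higher, 5 lower) became 3 (2 and 1) with a fold change minimum of 2 and 20 (8 and 12) with the adjusted p alone, and 2 were lower among members that share no exon bases with another expressed gene. The 3 called in THP1 (2 and 1) became 1 (1 and 0) and 15 (4 and 11) under the same limits, and 5 (3 of them lower) without an RPKM minimum, which added MIR210HG and MIR100HG. Without scaling beyond library totals, the snoRNA host median in THP1 was -0.15. Leaving out 1 library at a time gave 7 to 9 members called in Molm13 (3 to 4 higher, 4 to 5 lower), 3 to 4 in THP1 (2 to 3 higher, 1 to 1 lower) and 15 to 19 that differed between the lines. The medians then ranged from -0.15 to -0.093 (snoRNA hosts) and -0.066 to 0.21 (microRNA hosts) in Molm13, the extremes 0.21 and -0.15 coming without shPRMT9 library 1 and 2, and from -0.12 to -0.11 and 0.049 to 0.17 in THP1.

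The replicate block kept the counts at 9 and 3 called and gave 18 members with a difference between the lines against 17. The correlation of same-numbered deviations was -0.09 in Molm13 and -0.01 in THP1. With 2 libraries a group, this check cannot exclude that the libraries were paired.

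Signs turned only for log2 values that had not passed. In Molm13, SNHG11 was -0.0091 without a filter on low counts, -0.0016 with the replicate block and -0.0024 in one fit of all libraries, against 0.0047. In THP1, GAS5 was -0.015 without scaling and -5e-04 without a filter, and SNHG9 and SNHG3 were -0.0124 and -0.0109 without scaling. With 1 library left out, ranges that crossed 0 were -0.60 to 0.36 (MIR22HG), -0.13 to 0.13 (SNHG11) and -0.18 to 0.032 (MIR762HG) in Molm13, and -0.14 to 0.28 (MIR155HG), -0.19 to 0.20 (SNHG9), -0.11 to 0.028 (SNHG4), -0.038 to 0.069 (SNHG3), -0.030 to 0.085 (SNHG12) and -0.10 to 0.24 (MIR762HG) in THP1. Of the values of named members under all alternatives, 451 kept their direction and side of the threshold, 31 lost the threshold, 1 gained it and 21 turned sign, and of those for the difference, 229 kept both and 7 lost the threshold. The cause was not tested. With DESeq2, named members that no longer passed were MIR646HG (adjusted p = 0.333), MIR600HG (0.137) and SNHG5 (0.144) in Molm13, MIR222HG (0.202), MIR210HG (0.123), MIR100HG (0.0708), MIR600HG (0.14), SNHG8 (0.0586), SNHG11 (0.253) and SNHG19 (0.0942) in THP1, and MIR22HG for the difference (0.124). Without a filter on low counts, MIR222HG (0.0827) and SNHG11 (0.0703) no longer passed in THP1.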
